A study of Mus musculus with 5 samples.

Results

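The regions described here are 826 bins of the mouse genome, each 50 kb long, that lay in compartment B in both Basal libraries of hippocampal neurons and in compartment A in the Early library and in both Late libraries. They were chosen from 44650 bins on 18 autosomes (chromosome 7 and the sex chromosomes were left out) that had a value in all 5 libraries, and make up 1.85% of them, or 41.3 Mb. The value used is the first principal component (PC1) of a Hi-C interaction matrix, a signed score per bin scaled to an SD near 1. A value above 0 marks compartment A and a value below 0 compartment B in the convention of HOMER, the program that made it. The sign of PC1 in all 5 libraries chose the bins. Their rise over Basal is therefore a description, and calls from a fit across all bins on these contrasts are no test of it.

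Hi-C joins and sequences pieces of DNA that are neighbours in the folded genome. The libraries came from sorted neuronal nuclei of mouse hippocampus, stained with antibodies to NeuN, a neuronal nuclear antigen, and to GFP, which also bind the yellow reporter. PC1 cannot show marker expression, so the neuronal identity of the nuclei was not checked here. All 5 libraries carry the same strain label, a cross of ArcCreERT2 with the R26R-STOP-floxed eYFP reporter line, and genotype +/+. In these mice a tamoxifen-dependent Cre under the control of Arc, which neurons switch on with activity, starts the reporter in cells active around a dose of 4-hydroxytamoxifen, so the labelled set depends on Arc activity and on that dose. The dose came 1 h before fear conditioning, where mice learn to link a place to a foot shock. There were 2 Basal libraries, 1 Early library and 2 Late libraries, each from 100000 nuclei per group collected from 2 animals; ages are not among the labels. In sorted nuclei in bulk, a change in every cell and a change in the mix of cells cannot be told apart. The treatment label (foot shock and collection on the same day, no recall) is identical for all 5, so the states are known only by their titles. "Moving" and "staying" compare libraries of different states and do not follow the same cells.

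As background, compartment A holds open chromatin that is rich in genes and replicates early, and compartment B holds closed, gene-poor chromatin that often lies at the nuclear lamina. A bin near a PC1 of 0 makes contacts with both compartments, and its sign can change with a small change in contacts. The files name bins by position only, in mouse build mm9, and no genes were placed in bins by computation. The few genes named below are placed from general knowledge of the mm9 gene map, as background. Their order on the chromosome was read from a RefSeq gene table of the later build GRCm38.p6, used for names and neighbours only.

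The longest run of adjacent bins that moved to A and stayed lies on chromosome 16. It holds Sst, the gene of the neuropeptide somatostatin, and Bcl6, a transcriptional repressor. The second longest, on chromosome 3, ends around Sox2, a transcription factor of neural stem cells that is kept low in most mature neurons. Their promoters are shown because these genes lie in or at the end of the longest 2 runs, and because the cAMP response element in the Sst promoter is a textbook binding site of CREB, a factor of memory formation. They were picked by interest and not all genes there are shown: Rtp2, between Sst and Bcl6, is left out. The promoters come from RefSeq on GRCm38.p6 and cover 250 bases before and 50 after the annotated start. They were searched on both strands for that element (TGACGTCA) and for the AP-1 site (TGACTCA or its reverse complement TGAGTCA). Capitals mark a match. Positions in this paragraph are in GRCm38.p6 and cannot be set against the mm9 positions used elsewhere. The Sst promoter is chr16:23890795-23891094 on the minus strand, the first of the Bcl6 promoters chr16:23988803-23989102 on the minus strand, and the Sox2 promoter chr3:34649745-34650044 on the plus strand.
Sst: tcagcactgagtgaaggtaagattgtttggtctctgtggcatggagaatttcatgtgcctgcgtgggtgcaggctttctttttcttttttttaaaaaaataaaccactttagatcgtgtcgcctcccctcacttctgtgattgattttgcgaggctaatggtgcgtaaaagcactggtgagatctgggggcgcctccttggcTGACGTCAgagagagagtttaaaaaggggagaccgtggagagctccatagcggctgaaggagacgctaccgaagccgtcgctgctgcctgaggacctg
Bcl6: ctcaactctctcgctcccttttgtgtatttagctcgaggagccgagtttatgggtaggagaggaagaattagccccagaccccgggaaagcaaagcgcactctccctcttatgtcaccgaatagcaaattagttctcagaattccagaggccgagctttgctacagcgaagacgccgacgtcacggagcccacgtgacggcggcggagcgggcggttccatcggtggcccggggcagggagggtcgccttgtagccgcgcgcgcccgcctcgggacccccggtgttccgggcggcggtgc
Sox2: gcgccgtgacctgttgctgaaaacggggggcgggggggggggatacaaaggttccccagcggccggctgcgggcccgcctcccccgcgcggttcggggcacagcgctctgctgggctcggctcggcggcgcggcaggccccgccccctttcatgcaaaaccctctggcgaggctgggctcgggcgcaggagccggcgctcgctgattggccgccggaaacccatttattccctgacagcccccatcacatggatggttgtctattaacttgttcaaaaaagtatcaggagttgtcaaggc

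The Sst promoter held the full element starting at position -48 from its start, which 1.79% of the 32851 promoters in the table do. This match was known before the search and was a reason to show the promoter, so it is no finding about the run. The Bcl6 and Sox2 promoters held neither motif, and the AP-1 site was found in 5.20% of all promoters. A match describes the letters in this window and says nothing of binding in these nuclei. A Hi-C bin of 50 kb does not resolve a promoter.

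Over the 826 bins the median PC1 was -0.24 (Basal replicate 1) and -0.22 (Basal replicate 2), then 0.34 in the Early library, and finally 0.32 (Late replicate 1) and 0.35 (Late replicate 2). The lowest Basal values were -0.89 and -0.90, and the highest values were 1.48 for Early and 1.24 and 1.71 for the Late replicates. Most of these bins lay close to the border in Basal: 750 had a Basal mean above -0.5, 76 lay below -0.5, and none below -1. Over all 22910 bins in B in both Basal libraries, of which the 826 are 3.61%, the median Basal PC1 was -0.88. In Late, 208 of the 826 had a mean above 0.5 and 9 a mean above 1, and in Early 30 lay above 1.

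**Figure D1:**
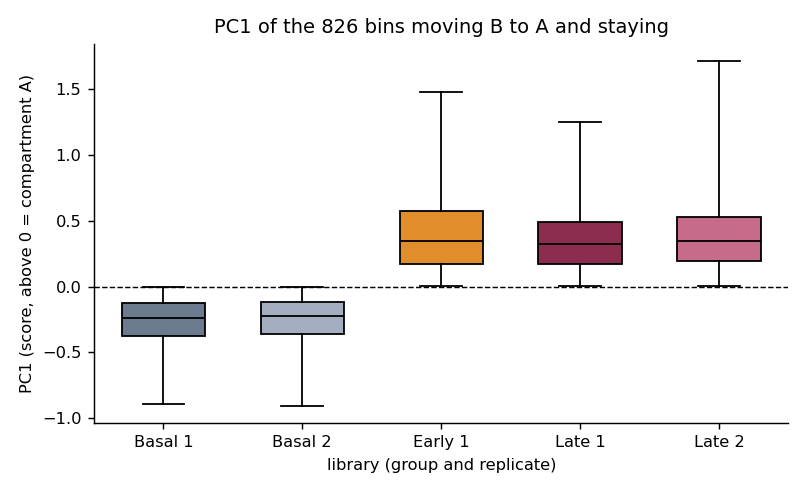
PC1 (score, above 0 is compartment A) of the 826 bins in each of the 5 libraries. Boxes span the quartiles over bins with the median as a line, and whiskers reach the lowest and highest bin; the Basal medians are -0.24 and -0.22, and the Early and Late medians lie between 0.32 and 0.35.

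The median difference over the bins was 0.603 PC1 units for Late minus Basal and 0.623 for Early minus Basal, while over all analysed bins it was -0.013 and -0.0030. For scale, the median absolute difference between the Basal replicates was 0.095 over the 826 bins, and that between the Late replicates 0.170. In the limma fit across all bins, 608 of the 826 passed an adjusted p of 0.05 as higher in Late than in Basal (background 7.73% higher) and 0 as lower (background 6.54% lower). For Early against Basal, 506 passed as higher (background 8.86% higher) and 0 as lower (background 8.91% lower). Both contrasts share the Basal libraries and were used to choose the bins, so nothing is read from these shares. The Late versus Basal count was 270 without Basal replicate 1 and 291 without Basal replicate 2. With all sequences as deposited in the fit, chromosome 7 included, limma called 0 of the 826 for Late versus Basal (738 at an unadjusted p under 0.05) and 135 for Early versus Basal. The Early versus Basal count was 252 when Basal replicate 1 was left out, 276 when Basal replicate 2 was, and 194 with libraries weighted by their local noise.

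Over the bins, Late and Early differed by a median close to 0. The median of Late minus Early was -0.0027 PC1 units, with quartiles of -0.20 and 0.18, and 407 bins were higher in Late and 419 lower. Early lay above both Late libraries in 315 bins (38.1%), between them in 222 (26.9%) and below both in 289 (35.0%). Over all analysed bins Early lay above both Late libraries in 40.2%, between them in 19.9% and below both in 39.9%. In limma 51 of the 826 differed between Late and Early (6.17%, background 13.2%), of which 42 were lower (background 6.71%) and 9 higher in Late (background 6.49%). The rule asked for the same sign in both groups and limits this difference, so the lower share is a description. This count also rests on the libraries: it was 145 without Late replicate 1, 141 without Late replicate 2 and 30 without either Basal library, and it was 28 with a 10 Mb deviation removed and 3 with libraries weighted by noise. With all sequences as deposited limma called 0 of the 826 for Late versus Early (144 at an unadjusted p under 0.05).

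Some bins stood far higher in Early than in Late and still met the rule. On chromosome 16 the bin from 24200001 to 24250000 had PC1 of -0.52 and -0.30 in Basal, 1.34 in the Early library, and 0.40 and 0.039 in Late. On chromosome 13 the bin from 71500001 to 71550000 had -0.67 and -0.42 in Basal, 1.22 in the Early library, and 0.024 and 0.25 in Late. At the other end, the bins on chromosome 3 from 34500001 to 34600000, around Sox2, were barely in A in Early, at 0.16 and 0.10, and above 0.8 in both Late libraries.

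The 826 bins formed 434 runs of adjacent bins, of which 242 were single bins, 103 had 2 bins, 75 had 3 to 5 and 14 had 6 or more. Runs of 2 or more held 584 bins (70.7%). Many runs lay near one another: 261 (60.1%) had another run within 500 kb and 106 within 100 kb. A single bin that misses the rule splits a run, as on chromosome 16 from 24500001, where Basal replicate 1 was at 0.015. No such count is given for other classes of bins, so nothing is read from this closeness. Bins are 50 kb long but were computed in windows of 100 kb, so adjacent bins share reads and a run of 2 bins is not 2 independent observations.

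The run on chromosome 16 from 23850001 to 24500000 spans 650 kb. Its mean PC1 was -0.43 and -0.32 in Basal, 0.64 in the Early library, and 0.42 and 0.41 in Late. Early stood above both Late libraries. Late averaged 0.416 ± 0.0085 and Basal -0.375 ± 0.080 (SD, n = 2 each). In the gene table, Sst, Rtp2 and Bcl6 follow one another and Lpp, a large gene of a focal adhesion protein, comes next. The bin from 23850001, in which Sst lies, had 0.21 in the Early library and 0.23 and 0.018 in Late, against -0.67 and -0.41 in Basal. Its values in Early and in Late replicate 2 were smaller than the local noise of those libraries described below, 0.229 and 0.203. The Sst bin is thus in A only narrowly. The bin from 23950001, in which Bcl6 lies, had 0.45 in the Early library and 0.46 and 0.59 in Late, against -0.22 and -0.15 in Basal.

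A second run on the same chromosome, from 23200001 to 23600000, lies in the stretch of St6gal1, a sialyltransferase gene, and Masp1, a gene of the complement lectin pathway. It had PC1 of -0.28 and -0.33 in Basal, 0.74 in the Early library, and 0.94 and 0.57 in Late. The 5 bins between the runs held no member: they averaged -0.83 and -0.87 in Basal, 0.13 in the Early library, and -0.12 and -0.079 in Late. They lay deeper in B in Basal than the runs beside them. Their mean rose too, from -0.85 in Basal to -0.098 in Late, just below 0. The bin from 23600001 was above 0 in both Late libraries, at 0.032 and 0.285, but at -0.012 in Early.

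On chromosome 3 the run from 34050001 to 34600000 spans 550 kb and ends around Sox2. Its PC1 was -0.23 and -0.24 in Basal, 0.33 in the Early library, and 0.82 and 0.66 in Late, so Early lay between Basal and Late. The next bin, from 34600001, was in A in Late, at 0.90 and 1.08, but at -0.24 in Early, and so was no member.

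On chromosome 2 the run from 74800001 to 75150000 lies beyond Mtx2. This is the gene desert beside the HoxD cluster, a row of limb and body axis genes, and in embryos it is known for enhancers of Hoxd genes. Its PC1 was -0.17 and -0.20 in Basal, 0.74 in the Early library, and 0.28 and 0.35 in Late. Early stood above both Late libraries. The 6 bins before it, from 74500001 to 74800000, over the HoxD cluster and Mtx2, were in A in all 5 libraries. Its Late minus Basal of 0.50 was the smallest of the 20 named runs, and it was 0.36 with a 10 Mb deviation removed.

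The 4 other runs of 400 kb or more lay on chromosomes 3, 4 and 5. On chromosome 5 the run from 64750001 to 65200000 had PC1 of -0.30 and -0.23 in Basal, 0.51 in the Early library, and 0.47 and 0.62 in Late. It was flanked by A on both sides in Basal. On chromosome 3 the run from 130500001 to 130900000 had -0.26 and -0.35 in Basal, 0.77 in the Early library, and 0.93 and 0.39 in Late. Its Late replicates lay further apart than those of the other 19 named runs. On chromosome 5 the run from 92950001 to 93350000 had -0.34 and -0.25 in Basal, 0.65 in the Early library, and 0.37 and 0.42 in Late. On chromosome 4 the run from 94850001 to 95250000, distal of Jun, an immediate early transcription factor gene, had -0.25 and -0.24 in Basal, 0.27 in the Early library, and 0.29 and 0.50 in Late.

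The runs with the widest margin, meaning that the library mean nearest to 0 was still far from it, were shorter. On chromosome 13 the run from 63700001 to 63900000 led, at -0.57 and -0.56 in Basal, 0.79 in the Early library, and 0.72 and 0.63 in Late. It lies distal of Ptch1, the receptor gene of the hedgehog pathway. Of the 17 bins from 63400001 to 64250000 there, 10 were members, and over all 17 PC1 averaged -0.19 and -0.25 in Basal, 0.72 in the Early library, and 0.72 and 0.93 in Late. Every Early and Late mean there was above 0.7. On chromosome 18 the run from 57200001 to 57450000, in the stretch of Megf10, an engulfment receptor gene, had -0.43 and -0.43 in Basal, 0.39 in the Early library, and 0.90 and 0.75 in Late. On chromosome 8 the run from 42000001 to 42200000, with B on both sides, had -0.52 and -0.35 in Basal, 0.40 in the Early library, and 0.58 and 0.85 in Late.

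**Figure D2:**
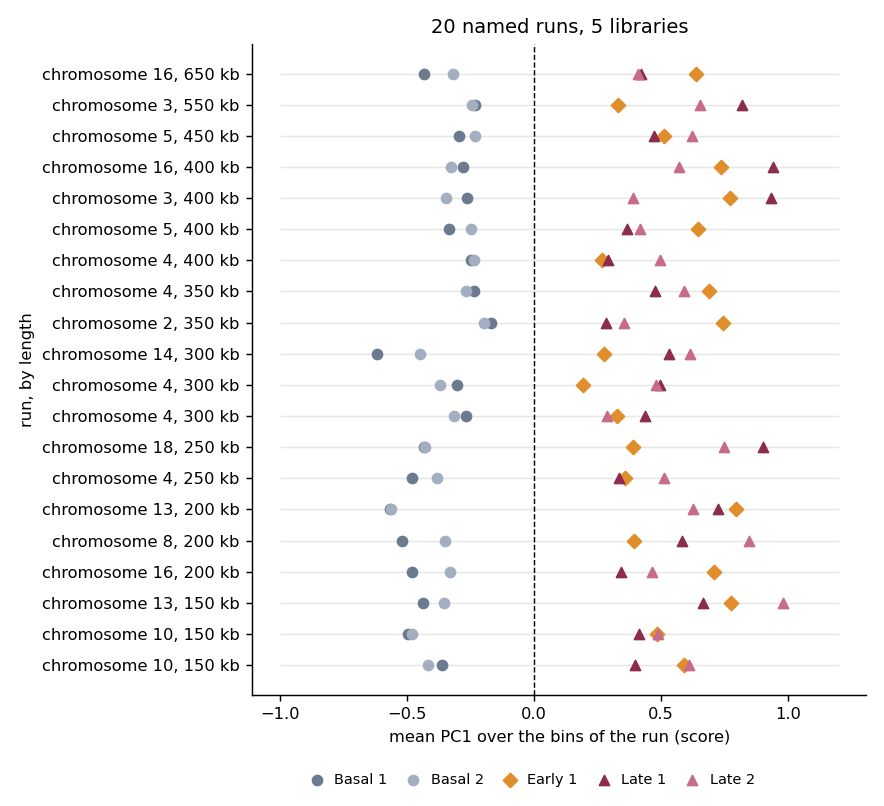
Mean PC1 over the bins of each of the 20 named runs (the 12 longest and the 8 with the widest margin), in 5 libraries; circles are Basal, diamonds Early and triangles Late, and the dashed line is the border of B (left) and A (right). All Basal run means lie between -0.62 and -0.17, and all Early and Late run means between 0.19 and 0.98.

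Across the 20 named runs, Late minus Basal ran from 0.50 to 1.26 and Early minus Basal from 0.51 to 1.36, while Late minus Early ran from -0.42 to 0.43. Early stood above both Late libraries in 6 runs, below both in 6 and between them in 8. For Late versus Early, 10 of their 128 bins passed in limma (background 13.2%), a difference that the rule limits. The run means of all 20 had the same sign pattern by the way they were chosen.

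**Figure D3:**
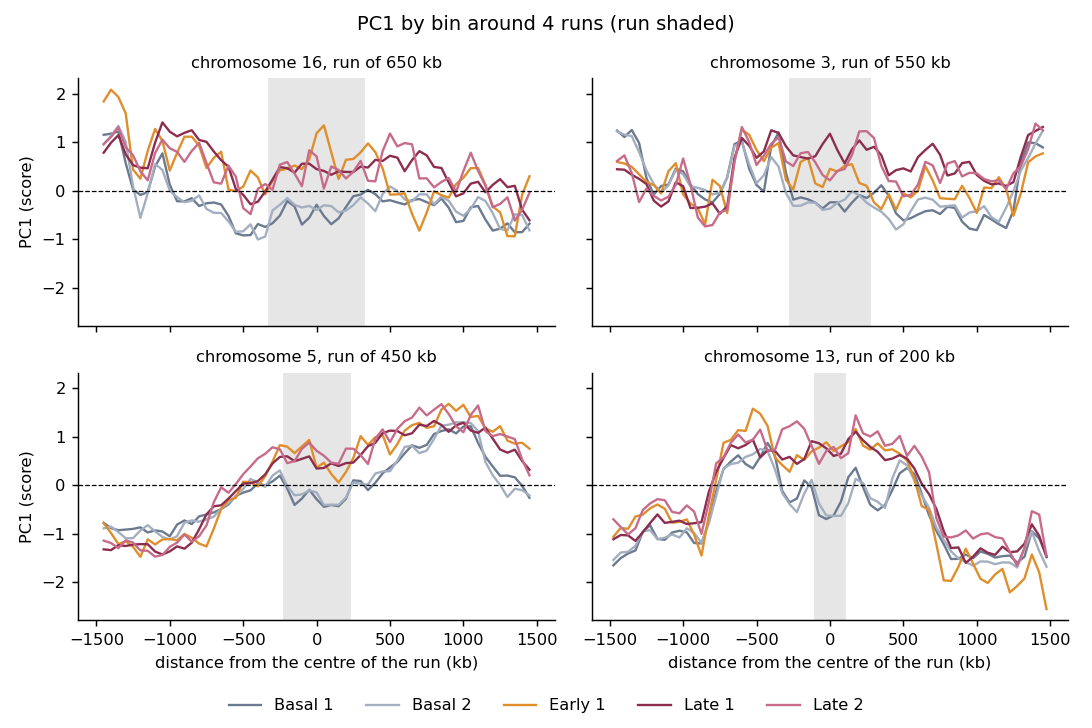
PC1 by bin against the distance from the centre of the run in kb, in 5 libraries, around the longest 3 runs (650, 550 and 450 kb) and the run with the widest margin (200 kb on chromosome 13); the run is shaded. Within the shading the Basal lines lie below 0 and the Early and Late lines above it.

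The surroundings of the runs were higher than in Basal too, although these bins did not meet the rule. Taking the members out, bins 0 to 50 kb from the edge of a run had a median Late minus Basal of 0.428, those at 100 to 200 kb of 0.250, and those at 200 to 500 kb of 0.154. At 500 to 1000 kb the median was 0.045, and at 1000 to 2000 kb it was -0.016. Late lay above Basal in 83.0% of bins at 100 to 200 kb and in 70.1% at 200 to 500 kb, against 48.1% of all analysed bins. Early minus Basal also shrank with distance, with medians of 0.228 at 100 to 200 kb, 0.151 at 200 to 500 kb and 0.059 at 500 to 1000 kb. The bins at 100 to 200 kb were already in A in Basal at their median (0.083). No test was made of this, since the flanks share neighbourhoods, and in the first 100 kb reads, with the members.

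**Figure D4:**
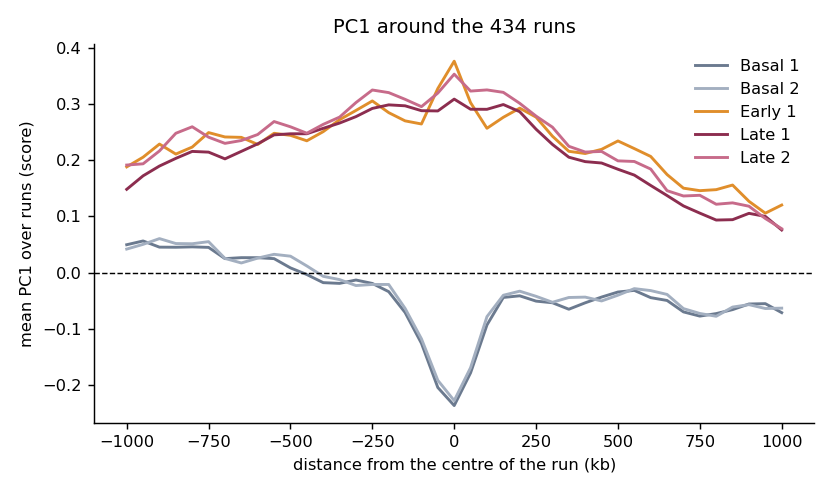
Mean PC1 over the 434 runs against the distance from the centre of the run in kb, in 5 libraries. The Basal lines dip to -0.24 and -0.23 at the centre and come up toward 0 on either side, while the Early and Late lines stand between 0.31 and 0.38 at the centre and still lie above the Basal lines at 1000 kb.

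By place, many of the bins lay near the edges of A. The median distance to the nearest bin in A in both Basal libraries was 100 kb, and 26.4% lay next to such a bin. For all bins in B in both Basal libraries the median was 700 kb, and 4.22% lay next to one. Other bins that changed sign shared this closeness in part. Bins that moved from A to B and stayed had a median of 150 kb to a Basal B bin, and 25.2% lay next to one. To a Basal A bin, bins in A only in Late had a median of 200 kb (22.3% next to one) and bins in A only in Early 300 kb (8.78%). The members' Basal values are near 0. They were not compared with other Basal B bins of like PC1, so what this closeness to A owes to those values was not tested. Of the 434 runs, 140 had A on 1 side in Basal, 22 had A on both sides and 85 had B on both sides. The other runs touched a bin on which the Basal replicates differed in sign (182) or a bin with no value (5). Runs with B on both sides lay deeper in Basal, at a median Basal PC1 of -0.31, against -0.18 for runs with A on 1 side.

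A few bins lay far along the chromosome from any bin in A in Basal, which does not mean that their Basal PC1 was low. Of the 826, 86 (10.4%) were over 500 kb from a bin in A in Basal and 40 over 1000 kb, where 59.2% of all bins in B in both Basal libraries were over 500 kb away. Chromosome 9 held 14 of the 40 and chromosome 16 held 11. On chromosome 9, 12 of the 20 bins from 13200001 to 14200000 were members, up to 7200 kb from the nearest bin in A. Over these 20 bins PC1 averaged -0.23 and -0.15 in Basal, 0.39 in the Early library, and 0.18 and 0.33 in Late.

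Chromosomes contributed unevenly. Chromosome 4 held the most, 103 bins or 3.46% of its analysed bins, and chromosome 5 held 92 (3.16%). Together they held 23.6% of the members and 13.2% of the analysed bins. Chromosome 10 followed with 2.72% and chromosome 16 with 2.47%. Chromosome 6 had the lowest share (0.547%), before chromosomes 17 (0.603%) and 12 (0.840%), and the median over chromosomes was 1.72%. These shares use the scores as deposited. With chromosome medians aligned, Late minus Basal fell from 0.638 to 0.461 in the chromosome 4 run from 94850001. It fell from 0.812 to 0.624 in the chromosome 5 run from 64750001, and from 1.24 to 1.22 in the chromosome 13 run from 63700001. Whether offsets of whole chromosomes shape the shares was not tested. On chromosome 13 the members stood highest in Early, with a median of 0.71, against 0.39 in Late. On chromosome 3 the order was the other way, with 0.38 in Early and 0.51 in Late. Along the chromosomes, the fifth nearest to the centromere end held 17.2% of members (19.7% of the analysed bins), the next 25.7% (20.1%) and the one at the far end 15.9% (20.1%).

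**Figure D5:**
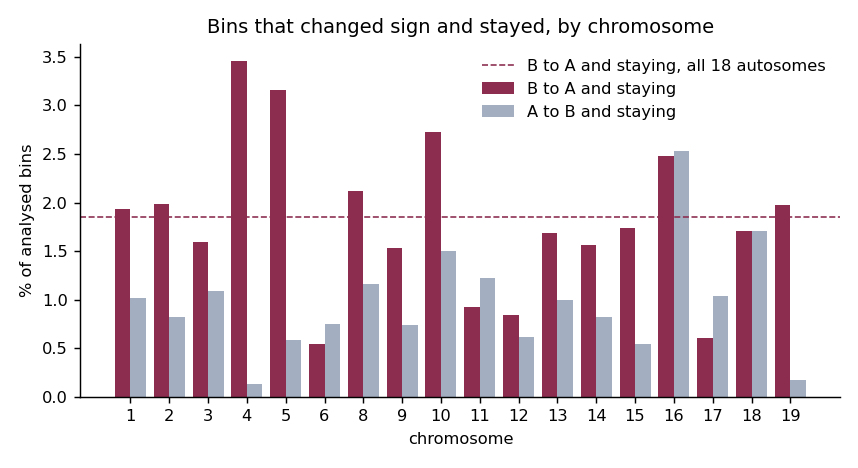
Share of analysed bins (%) on each of the 18 autosomes that moved from B to A and stayed (dark bars) or from A to B and stayed (light bars); the dashed line is the B to A share over all 18 autosomes, 1.85%. In the scores as deposited, chromosomes 4 and 5 stand highest for B to A, at 3.46% and 3.16%.

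The mirror set, bins in A in Basal and in B in Early and both Late libraries, held 425 bins, so 66.0% of bins that changed sign and stayed went toward A. That share depended on the scaling: alignment of the chromosome medians gave 52.5% and quantile normalization 52.0%, both of which bring the libraries' shares of A together by construction, while removal of a 10 Mb deviation gave 65.0%. More bins went to A than to B on 13 of the 18 autosomes as deposited. On chromosome 4 the counts were 103 and 4, on chromosome 19 they were 23 and 2, and on chromosome 16 they were 47 and 48. Bins in A only in Early numbered 1116 and lay deeper in B in Basal, with a median Basal PC1 of -0.41, against -0.23 for the 826. Their median distance to a Basal A bin was 300 kb, against 100 kb for the 826. Bins in A only in Late numbered 515, with a median Basal PC1 of -0.29. By definition these are the same bins that missed the rule in the Early library alone, described below.

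The edge of the rule was narrow compared with the noise of single libraries. Local noise, an SD per library estimated from how bins differ between libraries after subtraction of bins 100 kb to either side, was 0.121 and 0.124 for Basal. It was 0.229 for the Early library, 0.113 for Late replicate 1 and 0.203 for Late replicate 2. Of the 826 bins, 210 (25.4%) were past 0 by more than this in every library. A further 1565 bins missed the rule in 1 library alone: 515 in Early, 334 in Late replicate 1, 288 in Basal replicate 2, 259 in Basal replicate 1 and 169 in Late replicate 2. The 515 are the bins in A only in Late, and 254 of them (49.3%) lay within 1 local noise SD of 0 in Early. Just inside the rule, a bin on chromosome 13 from 102750001 had -0.36 and -0.44 in Basal, 0.66 in the Early library, and 0.49 and 0.00025 in Late. Just outside it, a bin on chromosome 2 from 135750001 had -0.18 and -0.089 in Basal, 0.12 in the Early library, and -0.00033 and 0.18 in Late.

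The libraries listed 50558 to 51726 bins each. Over the analysed autosomal bins PC1 gave Pearson correlations across bins (which share chromosomes and are not independent) of 0.987 within Basal and 0.968 within Late, while Early gave 0.907 and 0.915 with Late, and 0.906 and 0.909 with Basal. Early, with 1 library, also had the highest local noise estimate. That estimate rests only on differences from libraries of other states, so it can include real differences of the Early state. What belongs to the state and what to that library cannot be told apart. Of the analysed bins, 47.0% and 46.9% were in A in the Basal libraries, 49.2% in the Early library, and 48.2% and 48.5% in the Late libraries.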

How the data were processed

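The authors deposited 1 table per library with a PC1 score per bin of 50 kb, computed in windows of 100 kb; it was made with HOMER on mm9, per the submitters' processing notes. Versions, aligner, read filters and how the sign was chosen: not given in the sources used here. Depth is unknown, as no table has counts of reads, and counting error cannot be stated. Each library was scaled to an SD near 1, which hides changes in overall compartment strength. Chromosome 7 was left out because its sign is inverted in 1 library (lowest r between libraries -0.976).

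Bins were selected by the sign of the deposited score and merged into runs when adjacent. Named are the 12 longest runs and the 8 runs of at least 2 bins with the widest margin. The members, gene lists and tests were chosen with earlier results of these data known. PC1 was compared with limma 3.58.1 in R 4.3.3 on 47652 bins (18 autosomes and X), all 5 libraries in 1 fit, 2-sided, with Benjamini-Hochberg adjustment at 0.05. Residual degrees of freedom were 2, with 6.60 from the prior. The code of the fit was run on simulated data with equal noise in every library and independent bins. The real libraries differ in noise and adjacent bins share reads, so that run cannot show how reliable the calls are here. Backgrounds are shares of the 44650 autosomal bins. Early, with 1 library, is assumed to vary like the others. The labels call the replicates biological but do not tie animals to libraries, so p-values measure the spread between libraries. Python 3.11.15, numpy 2.4.6, pandas 2.3.3 and matplotlib 3.10.9 did the rest. Gene starts per bin, the 18 gene lists and the marker check of the sorted cells were not used, since the gene table is of another build than the files. Alternatives are listed in the closing section.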

Additional observations from a re-analysis of the deposited data

How the results depend on the processing

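The number of bins moving to A and staying rests on how far from 0 a bin has to lie. It was 373 in 225 runs when each library had to pass 0 by 0.1 SD (median Late minus Basal 0.72) and 126 in 90 runs at 0.2 SD (0.87, and Early minus Basal 0.86). Keeping runs of at least 2 bins left 192 runs, and keeping runs of at least 3 bins left 378 bins in 89 runs (median Late minus Basal 0.72). With chromosome medians aligned it was 629, of which 587 were members as deposited, and with these and a 0.1 SD margin, a choice made after seeing the data, 257 in 170 runs. Quantile normalization gave 636, all of them members as deposited, a 10 Mb deviation removed 725, averaging over 3 bins 887, adding X 966 and adding chromosome 7 with its sign inverted in Late replicate 1 840. Leaving out each library in turn gave 995 to 1341 bins in 511 to 638 runs; fewer libraries set fewer conditions.

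Leaving out each library, bins called ranged from 1749 to 12634 for Late versus Basal (members 270 to 675), from 3096 to 15844 for Early versus Basal (members 252 to 689), and in the Late versus Early contrast from 3703 to 12085 (members 30 to 145); the cause was not tested. The 10 Mb deviation removed left 4826 bins in the Early versus Basal contrast and 3283 in Late versus Early, with 28 members. Weighting by local noise gave 2103 (194 members) and 787 (3 members). With all sequences as deposited, chromosome 7 included, limma called 0 bins and 0 members for Late versus Basal (unadjusted p under 0.05: 11301 bins, 738 members), 1430 bins and 135 members for Early versus Basal, and 0 and 0 for Late versus Early (unadjusted: 11892 and 144). In that setting the differences are unchanged, and only the shared variance and the set of bins adjusted over differ. Replicate numbers are shared by Basal and Late, but the labels do not say that they pair libraries, and the deviations of same-numbered libraries correlated at 0.011 over bins. With the number as a replicate block, limma called 7176 bins for Late versus Basal (636 members), 7998 in Early versus Basal (482), and 5635 in Late versus Early (51). Gene starts per Mb were not run, for want of an annotation of the build.

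Late minus Basal of the 20 named runs kept its direction under every alternative run, but the choice of runs by sign largely fixed that direction. The lowest value was 0.36, for the run on chromosome 2 with a 10 Mb deviation removed. Calls were less stable. With all sequences as deposited, limma called 0 of the bins of these 20 runs for Late versus Basal. Most bins did not pass in 4 of the runs with a 10 Mb deviation removed, and in 1 with quantile normalization. The same held for 1 run with a trend in the prior. In some runs most bins also did not pass when either Basal library was left out, a setting that leaves 1 Basal library.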
